A study of Mus musculus with 72 samples.

Results

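The axon guidance ligands and receptors described here are the semaphorins of classes 3 to 7, the neuropilins and plexins, the ephrins and Eph receptors, the Slit and Robo genes, and the netrins with Dcc and the Unc5 receptors. Members were taken by symbol: 67 symbols of these families stood in the filtered 10X table, and the 62 with a unique molecular identifier (UMI, 1 counted RNA molecule) in 10 or more cells were kept, out of 17231 genes in all. The members just inside that limit were Robo3 with 12 cells, Sema3g with 14 and Efna1 with 18, and the symbols just outside it were Efna4 with 9 cells, Epha2 with 8 and Plxna4os1 with 7. Ephb4 and Plxnb3 had a UMI in 3 cells each. By role the members were 20 semaphorins, 2 neuropilins, 8 plexins, 7 ephrins, 11 Eph receptors, 3 Slits, 3 Robos, 2 netrins, 5 netrin receptors and 1 antisense transcript of the Plxna4 locus. The members together held 0.112% of all UMIs.

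RNA was measured in single Pet1 (Fev) lineage neurons of the dorsal raphe nucleus of adult mice, the brainstem nucleus that supplies most of the forebrain's serotonin, in 72 samples. In 70 of them, 1 manually sorted cell each, Pet1::Flpe and 1 of 4 Cre drivers were combined with the dual-recombinase reporter RC::FrePe, every allele being heterozygous. The groups were Sert_Pet1_dlDR (dorsolateral, n = 10 cells), Sert_Pet1_dmDR (dorsomedial, n = 9), Sert_Pet1_vmDR (ventromedial, n = 8) and Sert_Pet1_cDR (caudal, n = 6), all with Sert::cre; P2ry1_Pet1_cDR (P2ry1::cre, caudal, n = 10); Npy2r_Pet1_cDR (n = 10) and Npy2r_Pet1_rDR (rostral, n = 9), both with Npy2r::cre; and Crh_Pet1_rDR (Crh::cre, rostral, n = 8). The Sert::cre cells came from mice of postnatal day 63 or 90, the caudal group from day 63 alone. The P2ry1::cre mice were 62 to 74 days old, the Npy2r::cre mice 77 or 87 and the Crh::cre mice 83 or 119. The other 2 samples were 10X runs of the whole dorsal raphe, one of Pet1::Flpe; hM3Dq mice (hM3Dq homozygous, mean age 65.5 days, no Cre) and one of En1::cre; Pet1::Flpe; RC::FrePe mice (mean age 59 days), whose labelled cells have a history of both En1 and Pet1. Recombinase labelling is permanent, so a cell of any group need not transcribe its driver gene when it is collected. The labels name no animals, and cells of 1 group may share a mouse; every group and the 10X table were therefore treated as 1 sample, and no test was run. No untreated or control group belongs to the design.

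The 10X table held 2350 cells with 12320 to 134079 UMIs each (median 59646), 869 with the first barcode ending (barcode set 1) and 1481 with the second (set 2). No barcode was shared between the sets. No source used here ties a barcode ending to a run. Genotype, age and run of a set cannot be told apart, and the values that matter most are repeated within the sets. The authors removed cells with much glial RNA or little Fev, and each remaining cell had at least 1 Fev UMI. Glial, microglial, vessel and other neuron markers were low: over the 6 cell classes below, summed oligodendrocyte markers ranged from 54.0 to 91.8 CPM (counts scaled to the same total in each class), astrocyte markers from 0.898 to 3.66, microglial markers from 0.229 to 5.06 and vessel markers from 0.266 to 7.25. Aqp4, Olig1, Slc6a3 and Slc17a7 were not in the table. The manually sorted cells had 756872 to 7664103 reads on genes.

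Cells of the 10X table were put in 1 of 6 classes by their UMIs of 4 genes that are not members. Met cells held 3 or more UMIs of Met, a receptor tyrosine kinase (n = 93, median 46273 UMIs). Tph2-low cells had under 500 CPM of Tph2, the rate-limiting enzyme of serotonin synthesis (n = 131, median 27329 UMIs). The rest were split by 3 or more UMIs of Gad2, which makes GABA, and of Slc17a8, the vesicular glutamate transporter VGLUT3: Gad2 cells (n = 872, median 62061), Slc17a8 cells (n = 684, median 63265.5), cells with both (n = 256, median 64277) and cells with neither (n = 314, median 51409.5). Of the Met cells 91 also had 3 or more Slc17a8 UMIs, as did 121 of the Tph2-low cells. For Gad2 these counts were 4 and 26. For Gad2 and Slc17a8 the limits cut through a range: 190 cells had 2 or 3 Gad2 UMIs and 161 had 2 or 3 of Slc17a8. Fewer cells lay near the other limits: 21 had 2 or 3 UMIs of Met, and 18 lay between 400 and 600 CPM of Tph2.

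Guidance molecules steer growing axons by attraction or repulsion. Secreted class 3 semaphorins bind neuropilins, which signal with plexins, while most membrane-bound semaphorins bind plexins directly. Ephrins signal to Eph receptors at cell contacts, and in both directions. Secreted Slits repel axons through Robo receptors, and netrins act through Dcc, often as attractants, or through Unc5 receptors as repellents. Many of these genes stay on in adult neurons, where they are known for roles at synapses. Serotonin axons reach almost the whole forebrain, and a class of raphe neurons can hold both a ligand and its receptor, so RNA is given for both sides of each pair.

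Promoter sequences are shown for 4 members that the values below return to: Epha4 in Tph2-low cells, Unc5c and Robo1 in Met cells, and Slit2 between Gad2 and Slc17a8 cells. Other members differed as much or more. Each runs 5′ to 3′ on the gene's strand from 250 bases before to 50 after a RefSeq start (build GRCm38.p6), with capitals for any hexamer searched. The sequence set used here gives 1 start for each of the 4 genes, and other starts were not looked at. Epha4 lies at chr1:77515039-77515338 on the minus strand, Unc5c at chr3:141465314-141465613, Slit2 at chr5:47982905-47983204 and Robo1 at chr16:72662899-72663198, the last 3 on the plus strand. The Robo1 window lies inside the gene, whose annotated model begins at base 72308306 of that chromosome, so it belongs to an internal start.
Epha4: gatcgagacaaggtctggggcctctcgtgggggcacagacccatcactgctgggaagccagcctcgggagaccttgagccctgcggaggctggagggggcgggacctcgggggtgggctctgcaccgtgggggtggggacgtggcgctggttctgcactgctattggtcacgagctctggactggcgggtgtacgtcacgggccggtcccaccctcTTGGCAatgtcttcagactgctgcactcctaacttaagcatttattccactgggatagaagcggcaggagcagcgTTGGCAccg
Unc5c: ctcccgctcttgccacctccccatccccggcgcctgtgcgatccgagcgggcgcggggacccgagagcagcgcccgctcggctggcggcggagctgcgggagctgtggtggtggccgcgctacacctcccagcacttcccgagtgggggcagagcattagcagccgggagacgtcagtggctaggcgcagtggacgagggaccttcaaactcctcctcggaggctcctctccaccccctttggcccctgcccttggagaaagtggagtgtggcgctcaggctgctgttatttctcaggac
Slit2: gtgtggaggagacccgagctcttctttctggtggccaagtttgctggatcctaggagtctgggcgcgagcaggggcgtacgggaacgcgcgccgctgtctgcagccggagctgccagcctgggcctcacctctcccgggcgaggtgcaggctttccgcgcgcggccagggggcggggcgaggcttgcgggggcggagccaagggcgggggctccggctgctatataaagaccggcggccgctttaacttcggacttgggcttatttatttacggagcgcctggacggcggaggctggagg
Robo1: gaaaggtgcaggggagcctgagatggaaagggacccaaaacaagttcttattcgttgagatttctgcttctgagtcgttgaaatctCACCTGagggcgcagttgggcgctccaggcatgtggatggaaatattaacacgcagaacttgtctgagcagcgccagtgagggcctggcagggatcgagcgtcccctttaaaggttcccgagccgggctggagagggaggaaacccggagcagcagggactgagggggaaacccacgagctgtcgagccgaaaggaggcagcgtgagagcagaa
Searched on both strands were CAGGTG (an E-box that Zeb2 binds), TTGGCA (one side of an Nfi site), CCGGAA (the core that Ets factors such as Pet1 bind) and GATAAG (the core bound by factors of the Gata family). The Epha4 window held TTGGCA with first bases -34 and 42, counted from the start site. The Robo1 window held CACCTG, the reverse complement of the E-box, with its first base at -164. The Unc5c and Slit2 windows held none of the 4. RefSeq gave a promoter for 51 of the 62 members, 67 promoters in all. CAGGTG was in 13.4% of these and in 20.2% of all 32851 mouse promoters of this length, TTGGCA in 4.48% and 14.1%, CCGGAA in 10.4% and 14.9%, and GATAAG in 2.99% and 7.44%. Member promoters were richer in G and C, with a median of 64.7% against 52.7% over all promoters. A match is a run of letters only, and nothing here measured binding.

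Members were called most often in the Met and Tph2-low cells, the classes in which genes at large were also called most often. A gene was called higher or lower in a class when its CPM of summed UMIs was at least 2-fold above or below that of all other cells, and 56 members and 12901 genes had the 100 UMIs required. In Tph2-low cells 21 of the 56 members were called higher (background over all genes 9.32%) and 7 lower (background 6.86%). Epha4, among the 21, reached 100 UMIs only through these cells. In Met cells 8 were higher (background 3.64%) and 18 lower (background 11.6%). In Gad2 cells 1 was higher (background 1.57%), a member that reached 100 UMIs only through these cells, and 15 were lower (background 3.16%). In Slc17a8 cells 6 were higher (background 1.35%) and 5 lower (background 2.9%). Cells with both had 2 higher (background 0.411%) and 2 lower (background 1.36%), and cells with neither had 1 higher (background 0.295%) and 3 lower (background 1.59%). The members' median log2 ratio was 0.85 in Tph2-low cells against 0.18 over all genes, -0.39 in Met cells against 0.04, and -0.34 in Gad2 cells against -0.02. It lay between -0.05 and 0.08 in the other 3 classes. Tph2-low cells had the fewest UMIs and the highest summed oligodendrocyte markers (91.8 CPM), and the part of either in these counts was not tested.

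**Figure D1:**
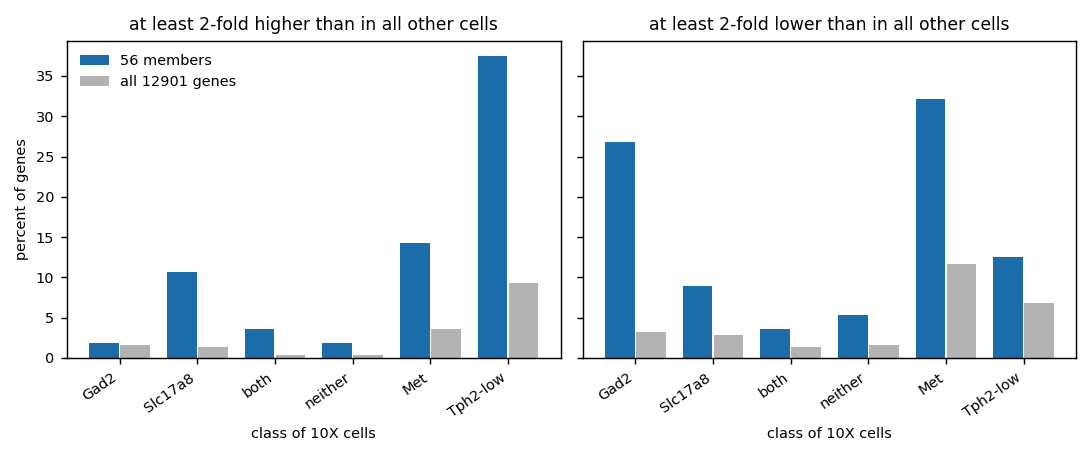
Percent of the 56 members (blue) and of all 12901 genes with at least 100 UMIs (grey) that were at least 2-fold higher (left) or lower (right) in each of the 6 classes of 10X cells than in all other cells. The members' share was 37.5% against 9.32% for higher levels in Tph2-low cells and 26.8% against 3.16% for lower levels in Gad2 cells, while for higher levels in Gad2 cells it was 1.79% against 1.57%.

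Between their highest and lowest class 29 of the 56 members differed by 4-fold or more, which is the limit used to choose the members given in full and was not counted over all genes. The other 6 members had under 100 UMIs: Efna1, Ephb3, Plxna4os2, Robo3, Sema3a and Sema3g, of which Sema3a had 88 UMIs and the other 5 between 12 and 26. The ratios below carry 95% intervals that cover counting error only, not the spread between mice, and CPM of this 3′ assay is compared for 1 gene between classes, not between genes.

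**Figure D2:**
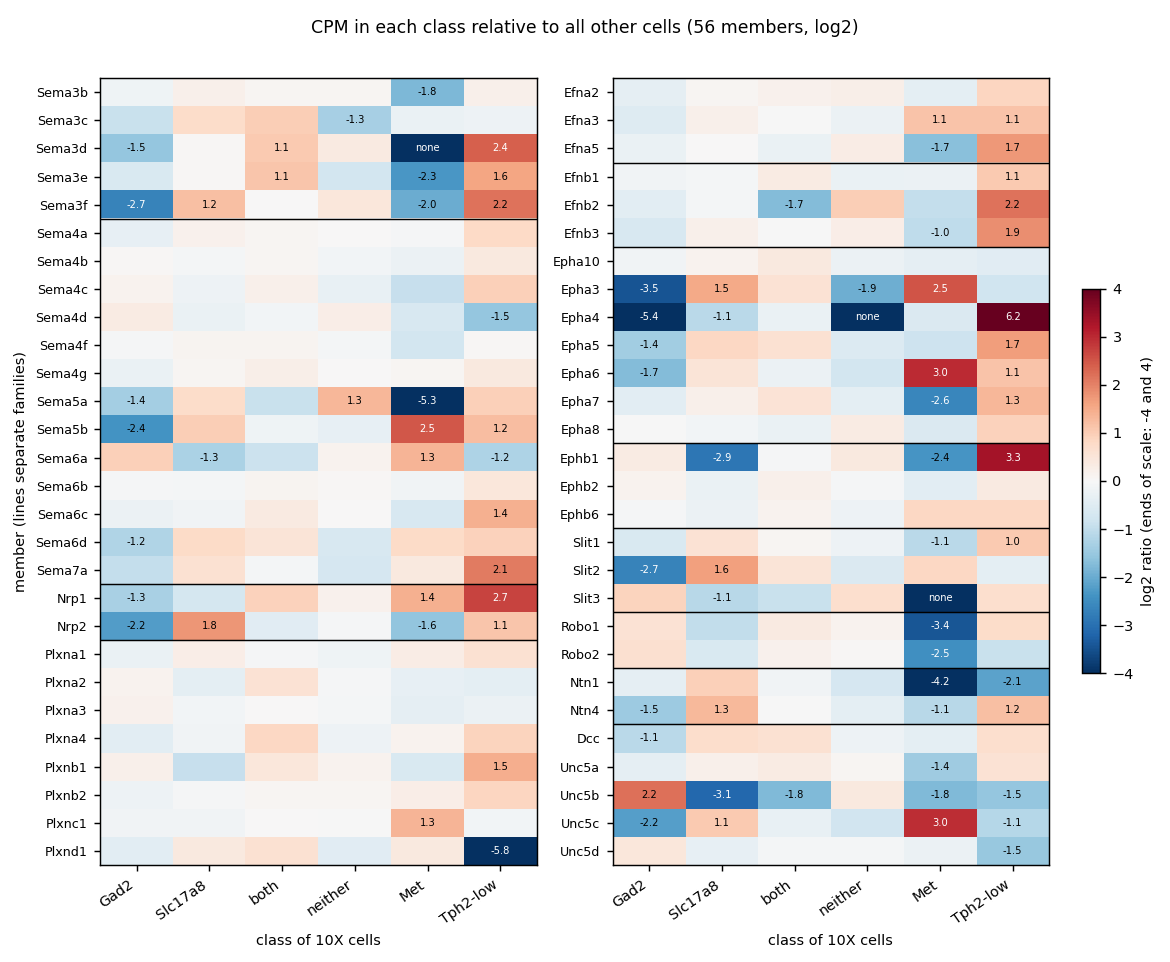
Log2 ratio of CPM in each class to all other cells for the 56 members with at least 100 UMIs, rows by member in family order and columns by class. Printed numbers mark members at least 2-fold higher (red) or lower (blue), "none" marks a class with no UMI of the gene, and the Met and Tph2-low columns hold the most numbers.

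Among the secreted class 3 semaphorins, summed CPM was 76.4 in Tph2-low cells, 73.1 in cells with both, 55.2 in Slc17a8 cells, 27.9 in Gad2 cells, 27.0 in Met cells and 24.4 in cells with neither. Sema3d was at 10.9 CPM in Tph2-low cells (set 1 11.4, set 2 10.5), 4.25 in cells with both and 1.07 in Gad2 cells, and no UMI was found in Met cells, where 3 UMIs would be 0.686 CPM, so Tph2-low cells were at least 15.9-fold higher. Its log2 ratio of Tph2-low cells to all others had an interval of 1.89 to 2.88 and was 1.63 with every cell thinned to 20000 UMIs. Sema3e, the ligand of Plxnd1, was at 18.9 CPM in Tph2-low cells, 12.6 in cells with both and 1.37 (6 UMIs) in Met cells. Both genes stood above the rest in Tph2-low cells and in cells with both. Sema3f, which acts through Nrp2, was at 7.19 CPM in Tph2-low cells (log2 ratio 2.17, interval 1.54 to 2.76), 2.87 in Slc17a8 cells and 0.413 in Gad2 cells (log2 -2.66, interval -3.37 to -2.03). Sema3c was at 51.4 CPM in cells with both, 39.9 in Slc17a8 cells, 19.1 in Gad2 cells and 12.3 in cells with neither, and this gene depended on the barcode set as described below. Sema3a, the classic ligand of Nrp1, is named here after its values were seen: 44 of its 88 UMIs fell in Tph2-low cells, at 11.7 CPM (set 1 13.1, set 2 10.5), and no other class was above 0.669 CPM.

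The neuropilins split by class. Nrp1, the co-receptor of Sema3a, was at 36.5 CPM in Tph2-low cells (log2 2.72, interval 2.44 to 2.98), 16.5 in Met cells (log2 1.44, interval 1.07 to 1.79), 10.9 in cells with both, 7.06 in cells with neither, 4.49 in Slc17a8 cells and lowest in Gad2 cells (log2 -1.30, interval -1.54 to -1.06). Nrp2, the co-receptor of Sema3f, was at 22.1 CPM in Tph2-low cells and 20.8 in Slc17a8 cells (log2 1.77, interval 1.62 to 1.93), against 3.66 in Met cells and 3.27 in Gad2 cells (log2 -2.24, interval -2.48 to -2.01). Gad2 cells were thus lowest for both co-receptors, and Met cells held Nrp1 without the higher Nrp2 of Slc17a8 cells. Sema3f and Nrp2 were higher in Slc17a8 cells and lower in Gad2 cells together.

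Of the 8 plexins 5 were within 2-fold of the remaining cells in every class: Plxna1, Plxna2, Plxna3, Plxna4 and Plxnb2. Plxna2, among the members with the most UMIs, ranged from 57.2 CPM in Tph2-low cells to 105 in cells with both, and Plxna4 from 52.3 in Gad2 cells to 114 in Tph2-low cells. Plxnc1, the receptor of the membrane-linked Sema7a, was at 115 CPM in Met cells (set 1 128, set 2 108; log2 1.35, interval 1.21 to 1.48) and between 44.2 and 48.2 in the other 5 classes. Sema7a itself was at 3.46 CPM in Tph2-low cells (13 UMIs) and 0.563 to 1.16 elsewhere. Plxnd1, the receptor of Sema3e, had 1 UMI in the 131 Tph2-low cells (0.266 CPM; log2 -5.83, interval -11.14 to -3.35) against 11.0 to 21.2 CPM in the other classes, so the ligand was at its highest level where the receptor was at its lowest. Plxnb1, a receptor of Sema4d, was at 9.05 CPM in Tph2-low cells and 2.16 to 4.56 elsewhere, whereas Sema4d was at 6.12 in Tph2-low cells (log2 -1.54) and 11.4 to 20.7 elsewhere.

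Of the 13 membrane-bound or membrane-linked semaphorins, those of class 4 other than Sema4d were within 2-fold of the remaining cells in every class. Sema5a, which also binds plexins, was at 37.1 CPM in cells with neither (set 1 30.7, set 2 43.0), 32.7 in Tph2-low cells and 23.8 in Slc17a8 cells, but at 8.79 in Gad2 cells and 0.457 (2 UMIs; log2 -5.28, interval -8.33 to -3.43) in Met cells. Its paralog Sema5b had the reverse order in Met cells, at 4.57 CPM (set 1 8.51, set 2 2.20) against 0.263 in Gad2 cells. Sema6a, a ligand of Plxna2 and Plxna4, was at 89.8 CPM in Met cells (set 1 92.4, set 2 88.3; log2 1.35), 52.4 in Gad2 cells, 40.2 in cells with neither, 21.8 in cells with both, 18.6 in Slc17a8 cells (log2 -1.28) and 16.0 in Tph2-low cells (log2 -1.24). Sema6d, a ligand of Plxna1, was lower in Gad2 cells, at 23.9 CPM (log2 -1.21), and was at 58.2 to 79.9 in the 4 classes that hold Slc17a8 UMIs. Sema6c was at 20.8 CPM in Tph2-low cells and 5.26 to 10.2 elsewhere.

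Summed CPM of the 7 EphA receptors was 423 in Tph2-low cells, 226 in cells with both, 221 in Slc17a8 cells, 147 in Met cells, 122 in cells with neither and 100 in Gad2 cells. Epha4, a receptor of both ephrin-A and ephrin-B ligands, was at 24.8 CPM in Tph2-low cells (93 of its 136 UMIs, set 1 24.4, set 2 25.1). Only through these cells did Epha4 reach the 100 UMIs required for a call. It was at 0.0376 CPM (2 UMIs) in Gad2 cells, 0.570 in Slc17a8 cells, 0.851 in cells with both and 0.686 (3 UMIs) in Met cells, and no UMI was found in cells with neither, against which Tph2-low cells were at least 129-fold higher. Epha5 was highest in the same class, at 331 CPM against 156 in Slc17a8 cells, 156 in cells with both, 62.6 in Met cells and 55.6 in Gad2 cells. It made up most of the summed EphA level in Tph2-low and Gad2 cells. Epha7 was at 26.6 CPM in Tph2-low cells, 15.2 in cells with both, 12.1 in Slc17a8 cells, 9.07 in Gad2 cells and 1.83 in Met cells. Epha3 and Epha6 instead led in Met cells: Epha3 was at 22.6 CPM there (set 1 12.8, set 2 28.6; log2 2.53, interval 2.20 to 2.84), 8.22 in Slc17a8 cells and 0.638 in Gad2 cells, and Epha6 at 31.8 CPM (set 1 45.0, set 2 23.8; log2 3.00, interval 2.72 to 3.27, or 2.34 thinned), 10.4 in Tph2-low cells and 2.01 in Gad2 cells. For both, the Met level of either barcode set lay outside the counting interval of the pooled level, and it was above that of the other 5 classes in either set. Epha10 and Epha8 were within 2-fold of the remaining cells in every class.

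Ephb1, an ephrin-B receptor, was at 55.1 CPM in Tph2-low cells (set 1 53.9, set 2 56.1; log2 3.32, interval 3.09 to 3.54) and 6.75 to 8.72 in Gad2 cells, cells with both and cells with neither. It was at 1.28 CPM in Slc17a8 cells (log2 -2.88, interval -3.30 to -2.48) and 1.37 in Met cells, although most Tph2-low cells hold Slc17a8. Ephb2 and Ephb6 stayed within 2-fold. All 3 ephrin-B ligands were called higher in Tph2-low cells: Efnb3 was at 70.5 CPM against 10.5 to 24.4 elsewhere, Efnb1 at 13.6 against 5.71 to 8.14 and Efnb2 at 5.32 against 0.425 to 2.31. Of the ephrin-A ligands, Efna5 was at 53.2 CPM in Tph2-low cells (set 1 57.9, set 2 49.1), 14.6 to 20.4 in the 4 larger classes and 5.49 in Met cells. Efna3 was high in both small classes, at 30.3 CPM in Tph2-low and 30.2 in Met cells, against 11.4 to 15.8 in the others. The members of these families called higher in Tph2-low cells were thus Epha4, Epha5, Epha6, Epha7, Ephb1, Efna3, Efna5, Efnb1, Efnb2 and Efnb3. Not called there were Efna2, Epha8, Ephb2 and Ephb6, as well as Epha3, at 2.66 CPM against 4.52 over all cells, and Epha10, at 25.3 CPM in its lowest class, and Efna1 and Ephb3 had no UMI in these cells. In Met cells Epha3, Epha6 and Efna3 were higher while Efna5, Efnb3, Epha7 and Ephb1 were lower.

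**Figure D3:**
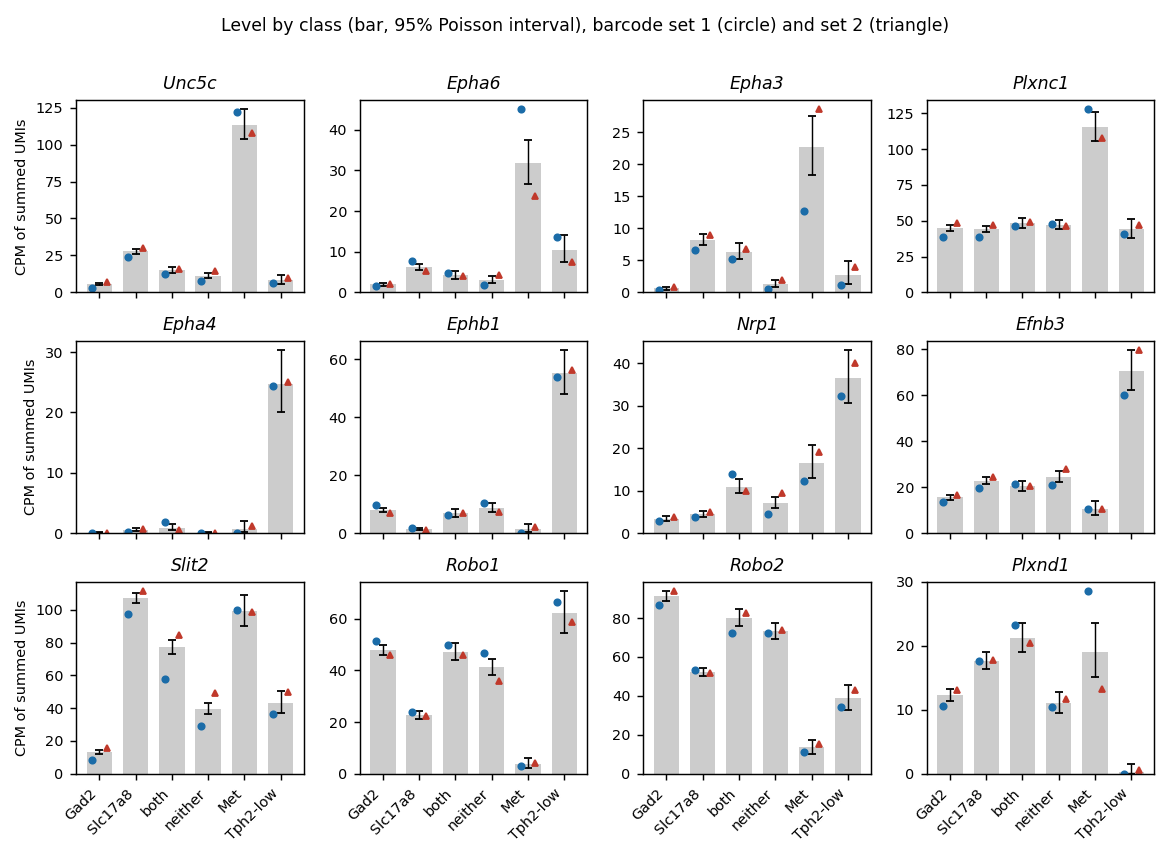
CPM of summed UMIs (linear axes from 0) of 12 members in the 6 classes of 10X cells, with bars for all cells of the class, 95% Poisson intervals for counting error, and circles and triangles for barcode sets 1 and 2. Unc5c, Epha6, Epha3 and Plxnc1 peak in Met cells and Epha4, Ephb1, Nrp1 and Efnb3 in Tph2-low cells, in both sets, whereas Robo1 and Robo2 are lowest in Met cells and Plxnd1 in Tph2-low cells.

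Slit2 and its receptors ran in opposite orders in the 2 largest classes. Slit2 was at 107 CPM in Slc17a8 cells (set 1 97.7, set 2 112; log2 1.65, interval 1.58 to 1.71), 99.0 in Met cells, 77.4 in cells with both, 43.4 in Tph2-low cells, 39.6 in cells with neither and 13.3 in Gad2 cells (set 1 8.56, set 2 15.7; log2 -2.68, interval -2.79 to -2.57). Robo1 was at 47.7 CPM in Gad2 cells and 22.8 in Slc17a8 cells, and Robo2 at 91.4 and 52.3. In Met cells both receptors were at their lowest, Robo1 at 3.66 CPM (16 UMIs; log2 -3.43, interval -4.23 to -2.72) and Robo2 at 13.5 (log2 -2.45, interval -2.85 to -2.08), in either barcode set. Robo1 was highest in Tph2-low cells, at 62.3 CPM, where Robo2 was at 38.9. Met cells therefore combined a high level of Slit2 with little Robo1 and Robo2, and Gad2 cells the reverse. Slit1 was at 15.2 CPM in Tph2-low cells, 5.82 to 9.85 in the 4 larger classes and 3.66 in Met cells. Slit3 was scarce everywhere, from no UMI in Met cells (3 UMIs would be 0.686 CPM) to 1.33 CPM in Tph2-low cells, and Robo3, a divergent Robo of commissural axons, had 12 UMIs in all.

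Ntn1, the prototype netrin, was at 12.1 CPM in Slc17a8 cells, 5.32 to 7.35 in Gad2 cells, cells with both and cells with neither, 1.86 in Tph2-low cells (7 UMIs) and 0.457 in Met cells (2 UMIs; log2 -4.18, interval -7.23 to -2.33). Ntn4, a laminin-binding netrin, was instead highest in Tph2-low cells, at 8.52 CPM, followed by Slc17a8 cells at 6.46, and lowest in Met and Gad2 cells, at 1.83 and 1.86. Among the receptors, Unc5c was at 113 CPM in Met cells (set 1 122, set 2 108; log2 2.96, interval 2.81 to 3.10), 27.8 in Slc17a8 cells, 14.9 in cells with both, 11.0 in cells with neither, 8.25 in Tph2-low cells and 5.61 in Gad2 cells (log2 -2.19). Met cells thus had the most RNA of this repulsive receptor and the least of Ntn1. At least 1 Unc5c UMI was found in 98.9% of Met cells (median 46273 UMIs) and 20.6% of Gad2 cells (median 62061 UMIs), and in 82.4% and 9.72% once every cell was thinned to 20000 UMIs. No cell type that should lack these genes was in the table, so the share that free RNA gives cannot be read.

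Unc5d, one of the members with the most UMIs, was at 126 CPM in Gad2 cells, 89.4 to 100 in the next 4 classes and 37.0 in Tph2-low cells (log2 -1.53, interval -1.78 to -1.29), where it was 13.6 in set 1 and 57.6 in set 2. Unc5b, also a receptor of repulsion, was the only member called higher in Gad2 cells over both barcode sets (in set 2 alone 3 members were). It was at 1.45 CPM there (77 of its 103 UMIs, log2 2.19, interval 1.54 to 2.89) and at 0.119 in Slc17a8 cells (5 UMIs). Only through the Gad2 cells did it reach the 100 UMIs required for a call. Unc5a was within 2-fold everywhere but in Met cells, at 4.80 CPM against 10.9 to 18.6. Dcc, the attractive netrin receptor, was at 2.12 CPM in Gad2 cells (log2 -1.09, interval -1.40 to -0.78), 2.74 in Met cells and 3.14 to 5.59 in the others. In Gad2 cells, then, Unc5b was called higher and Dcc and Unc5c lower, while Unc5a and Unc5d were within 2-fold of the remaining cells.

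Levels were set against each other between the barcode sets over all members in the 2 largest classes only. For some members of the smaller classes both set values are given, and gaps over 2-fold also occurred there. A search of all classes for ratios of opposite sign in the sets is given further below. In Gad2 cells 3 of 56 members were at least 2-fold higher in set 2 (background 1.47%) and 0 were lower (background 1.29%), and in Slc17a8 cells 1 was higher (background 1.22%) and 2 were lower (background 1.73%). Sema3c in Gad2 cells went from 5.37 CPM in set 1 to 26.3 in set 2, Unc5c from 2.76 to 7.12 and Epha3 from 0.379 (7 UMIs) to 0.776 (27 UMIs), a ratio whose counting interval included no difference. Sema3c showed the same direction in cells with neither (4.94 and 19.1 CPM) and in Slc17a8 cells (27.2 and 46.1). In Slc17a8 cells Epha4 was higher in set 2 (0.215 and 0.746 CPM) and Sema5b and Slit3 were lower, all at or under 2.36 CPM. Efna5 there fell just short of 2-fold, at 10.3 CPM in set 1 and 20.5 in set 2. This comparison was chosen after the values had been seen, and genotype, age and run cannot be told apart in it.

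The Tph2-low cells were not uniform. Cells with 2 or more UMIs of both Nfib and Nppc, a pair of a transcription factor and a natriuretic peptide gene, made up 30 of the 131, and the split was made after the values were seen. Epha4 was at 40.1 CPM in these 30 cells and 19.9 in the other 101 (log2 1.01, interval 0.36 to 1.63), and Sema5a at 52.3 and 26.6 (log2 0.98, interval 0.42 to 1.52). Nrp2 went the other way, with 11.1 and 25.5 CPM (log2 -1.20, interval -2.32 to -0.24), as did Sema6a with 7.80 and 18.5 (log2 -1.25, interval -2.63 to -0.11) and Efna5 with 35.6 and 58.8. Ephb1 was high in both, at 65.7 and 51.8 CPM, as were Epha5 at 385 and 315 and Efnb3 at 62.4 and 73.1. Levels of Ephb1, Epha5 and Efnb3 were thus high whether or not the pair reached 2 UMIs of each gene. Cells under that limit may still hold the pair unseen, as this class had the fewest UMIs.

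Finer sets were taken as cells with at least 2 UMIs of both genes of a subtype marker pair. Of 14 pairs, 13 gave 20 cells or more and are described, while Gpr101 Ecel1 gave 12. The sets overlap, so they are not independent: 219 cells were in both the Kit Hcrtr1 and Sox14 Prkcq sets, which is 31.6% of the first and 59.7% of the second. Among sets in which Gad2 cells were the largest class, the leading member by ratio to all other cells was Sema6a in Kit Hcrtr1 (51.8 CPM, log2 0.83), Unc5b in Sox14 Prkcq (1.76 CPM, log2 1.69), Ephb1 in Crym Trh (13.1 CPM, log2 0.99), Sema3e in Pdyn Ret (20.3 CPM against 3.58) and Epha8 in Pou3f2 Gad1 (3.44 CPM, log2 2.07). Slit2 was at 3.72 CPM in Crym Trh cells (59.3 in all other cells) and 6.78 in Sox14 Prkcq cells (log2 -3.31), under its 13.3 in Gad2 cells as a whole. In Pdyn Ret cells Plxna4 was also higher, at 122 CPM (log2 1.31), and Pou3f2 Gad1 cells had Ephb1 at 22.2 (log2 1.95), with 25 of their 170 cells in the Tph2-low class.

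Among sets in which Slc17a8 cells were the largest class, Sema5b led in Maf Nos1 cells (4.07 CPM, log2 2.80), which also held Ntn1 at 27.5 CPM (log2 2.24) and Sema3e at 19.9 (log2 1.96). Sema3d led in Tmeff2 Adcy2 cells (7.52 CPM, log2 2.28), followed by Sema3a, Efnb2 and Nrp2 with log2 ratios of 2.24, 2.21 and 2.17, and 21 of their 303 cells were Tph2-low. Sema5a led in Rorb Nr2f2 cells (36.1 CPM, log2 1.23), where Robo1 was at 6.52 CPM (log2 -2.66), the other large gap in Robo1 beside that of Met cells. Epha3 led in Hs3st5 Hcrtr2 cells (9.24 CPM, log2 1.43) and Sema3e, as in Pdyn Ret cells, in Rspo3 Foxa1 cells (15.6 CPM, log2 1.40), which also held Epha5 at 217 CPM (log2 1.11). The Npas1 Gabrq set, 54 cells of mixed class, combined Sema3f at 13.6 CPM (log2 3.20, interval 2.69 to 3.69), Sema5a at 115 (log2 2.94, interval 2.77 to 3.10) and Unc5c at 43.2 (log2 1.33). Epha6 led in Met Zeb2 cells (31.9 CPM, log2 3.04) and Epha4 in Nfib Nppc cells (41.3 CPM, log2 5.95), the first set holding 92 of the 93 Met cells and the second 30 of the 131 Tph2-low cells.

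**Figure D4:**
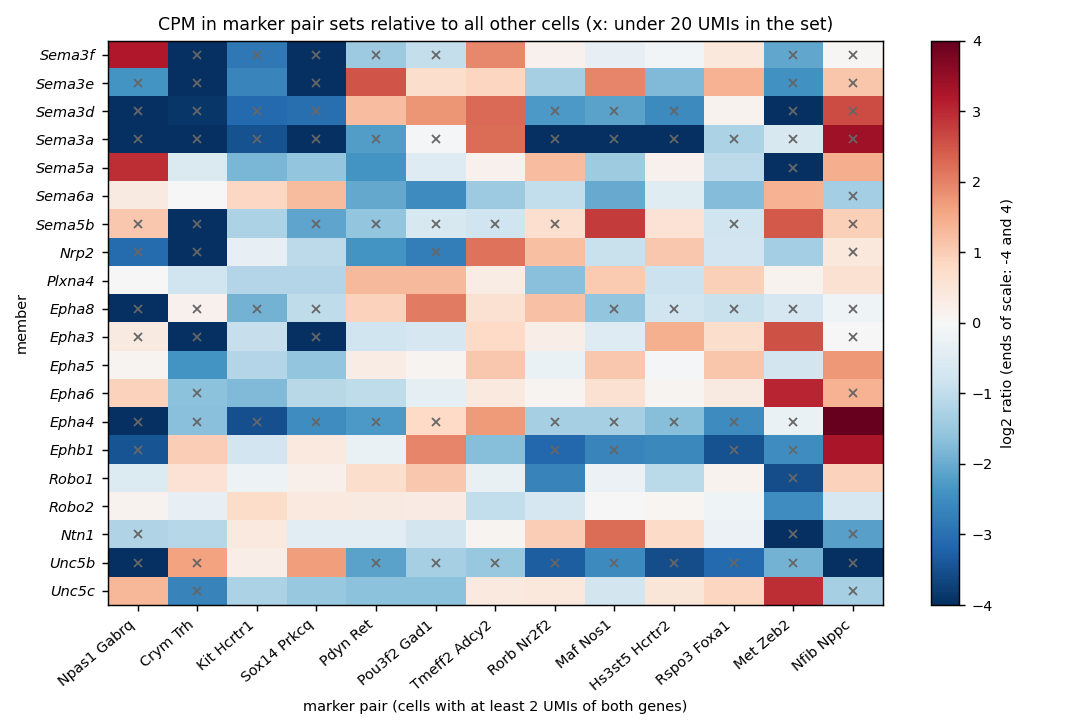
Log2 ratio of CPM to all other cells for 20 members (rows) in 13 sets of cells defined by a marker pair (columns), red for higher and blue for lower, with a cross where the set held under 20 UMIs of the member. Single members stand out by set, such as Sema3f and Sema5a in Npas1 Gabrq, Sema3e in Pdyn Ret, Sema5b and Ntn1 in Maf Nos1, and Epha4 and Ephb1 in Nfib Nppc.

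Across the 2350 cells, the members given in full values were also compared with each other, as Pearson r of log-scaled CPM over 496 pairs of 32 genes. Cells share libraries, depth and class, so r only describes these cells. The highest values were 0.42 for Slit2 and Epha5 (0.46 and 0.41 in the barcode sets), 0.39 for Sema3e and Epha5, 0.38 for Plxna4 and Epha5 and 0.34 for Unc5c and Epha3. Slit2 and Epha5 had r of 0.38 within Gad2 cells and 0.13 within Slc17a8 cells, whereas Sema3e and Epha5 had 0.58 and 0.34.

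Partners of these receptors inside the cell and at its surface were taken from a list of 51 genes, all in the table and 45 with 100 UMIs or more. Of these 45, 6 (13.3%, background 9.32%) were at least 2-fold higher and 2 (4.44%, background 6.86%) lower in Tph2-low cells. In Met cells 3 (6.67%, background 3.64%) were higher and 4 (8.89%, background 11.6%) lower. Gad2 cells had 1 higher (2.22%, background 1.57%) and 2 lower (4.44%, background 3.16%), and Slc17a8 cells had 1 higher (2.22%, background 1.35%) and 1 lower (2.22%, background 2.9%). Cells with both had 0 higher (background 0.411%) and 0 lower (background 1.36%). Cells with neither had 0 higher (background 0.295%) and 0 lower (background 1.59%). The shares of lower genes were under the background in every class but Gad2 cells. Ngef, the exchange factor that acts behind EphA receptors, was at 34.3 CPM in Tph2-low cells against under 5 in every other class (log2 ratio to all other cells 4.51, interval 4.18 to 4.84) and at 0.413 in Gad2 cells. Tph2-low cells were the highest and Gad2 cells the lowest class for Ngef, as for the summed EphA receptors. That sum was mostly Epha5, at 331 of 423 CPM in Tph2-low cells and 55.6 of 100 in Gad2 cells. Flrt3, a ligand of Unc5 receptors, was at 56.4 CPM in Tph2-low cells against 18.0 in all other cells (log2 1.65). Rgma, the repulsive ligand of neogenin, was at 12.0 against 3.06 CPM (log2 1.97), and Vav2 was higher as well. In Met cells Rgmb was at 39.1 CPM against 15.7 (log2 1.32) and Lingo1 at 73.8 against 33.9 (log2 1.12), with Nck2 the third, and Nrcam, Chl1 and Vav2 were among those lower. Flrt2, which binds Unc5d, was at 34.9 CPM in Gad2 cells against 15.3 and at 10.2 in Slc17a8 cells, and Mical2, an actin-oxidising enzyme behind plexins, had the reverse order with 4.79 and 16.7 CPM.

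The manually sorted cells give the same members by position and driver, as CPM of reads in single cells. Of the 62 members 61 were in that table, 52 reached the mean of 1 CPM required, and 14 had a median of 0 in all 8 groups. A gene was called apart when the group medians of log2(CPM + 1) differed by 1 or more, over 12287 genes, and the cells of a group vary widely. Driver genes checked the labels only in part: Met and P2ry1 had medians of 86.8 and 51.8 CPM in the P2ry1_Pet1_cDR cells, but the Crh median was 1.44 in Crh_Pet1_rDR cells, and Npy2r was at 38.7 in Sert_Pet1_cDR cells against 4.98 and 1.97 in the Npy2r::cre groups. Fev, Tph2 and Slc6a4 had reads in every cell of every group.

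P2ry1_Pet1_cDR cells were set against Sert_Pet1_cDR cells of the same caudal position. Of 52 members 9 were higher (background 9.39%) and 22 lower (background 30.5%), and 0 had cells that did not overlap between the groups (background 0.92%). Sema6a had a lowest, median and highest level of 0.312, 70.3 and 254 CPM in P2ry1::cre cells and of 0, 0.140 and 9.59 in Sert::cre cells. Plxnc1 was at 16.8, 122 and 275 CPM in the former and at 0, 2.90 and 133 in the latter. Both members were high in nearly all P2ry1::cre cells and low in most Sert::cre cells. Plxna4 medians were 40.7 and 0.150 CPM, and Epha3 had reads in 9 of 10 cells (median 8.79, highest 93.5) against 1 of 6. Unc5c was found in all 10 P2ry1::cre cells, at 11.5, 51.6 and 181 CPM, and in 5 of 6 Sert::cre cells, at 0, 13.8 and 17.8, while Epha6 was found in 10 of 10 (median 16.9) and 4 of 6 (median 3.83). In the 4 P2ry1::cre cells of day 64, the age with the most cells, medians were 46.7 CPM for Sema6a, 21.5 for Unc5c, 14.5 for Epha6, 2.17 for Epha3 and 1.21 for Plxna4, each under its median over the 10 cells and by far the most for Plxna4. Lower in P2ry1::cre cells were Slit1, with medians of 0 and 50.6 CPM, and Plxna3, with 0.164 and 60.4. Robo1, Epha7, Sema5a and Ntn1 had no reads in any of the 10 cells, and Robo1 was no higher than 0.798 CPM in the 6 Sert::cre cells either. Because the 10 P2ry1::cre cells held Met in 9 cases, their Unc5c, Epha6, Epha3, Plxnc1 and Sema6a can be read beside those of the 10X Met cells, where these 5 were among the 8 members called higher. The 2 lists differed otherwise: Ephb2, Ephb6, Plxna1 and Plxna4 were higher in P2ry1_Pet1_cDR cells and were not called in Met cells, while Efna3, Nrp1 and Sema5b were called higher in Met cells only, and the median of Nrp1 was lower by 0.86 on the log2 scale in P2ry1_Pet1_cDR cells. P2ry1_Pet1_cDR cells had fewer genes detected (median 7947) than Sert_Pet1_cDR cells (9269), the latter had 27.2 CPM of summed astrocyte markers where the former had a median of 0, and no age but day 63, with 1 P2ry1::cre cell, was common to both groups. The part of these in the counts was not tested.

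Npy2r_Pet1_cDR and Npy2r_Pet1_rDR cells compare caudal with rostral positions under 1 driver. Of 52 members 11 (21.2%) were higher caudally (background 13.4%) and 9 (17.3%) lower (background 12.2%), and 0 had cells apart (background 0.00814%). With a pseudocount of 5 CPM the total fell from 20 to 12. Plxnc1 was at 0, 79.5 and 100 CPM (lowest, median, highest) in caudal cells and at 0, 0.672 and 104 in rostral cells, so the ranges coincide and the medians do not. The difference of 5.59 on the log2 scale became 3.08 with means over cells. Robo1 was at 0, 10.2 and 71.7 CPM caudally and at 0, 48.7 and 144 rostrally. Its medians within ages were 7.74 and 34.3 at day 77 and 20.8 and 53.3 at day 87, the same order at both. Slit2 was found in 10 of 10 caudal cells (19.1 to 209 CPM) and 7 of 9 rostral cells (highest 142), but at day 77 its median of 132 CPM in 3 rostral cells was above the 77.5 in 4 caudal cells.

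Crh_Pet1_rDR and Npy2r_Pet1_rDR cells compare 2 drivers at the rostral position. Of 52 members 11 (21.2%) were higher in Crh::cre cells (background 20.6%) and 6 (11.5%) lower (background 6.34%), with 0 apart (background 0.00814%), and a pseudocount of 5 CPM took the total from 17 to 11. Unc5d was at 21.2, 103 and 188 CPM in Crh::cre cells and at 0.672, 30.4 and 83.0 in Npy2r::cre cells. Efnb3 had reads in 3 of 8 Crh::cre cells (median 0) and 8 of 9 Npy2r::cre cells (median 14.5 CPM), and Robo1 medians were 8.51 and 48.7 CPM. The ages of the 2 groups do not meet (83 or 119 days against 77 or 87), so driver and age cannot be told apart.

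Among the Sert::cre groups, dorsolateral cells differed from dorsomedial cells with 2 members higher (background 7.42%), 10 lower (background 15%) and 0 apart (background 0%). The members higher in dorsolateral cells were Slit1, with medians of 6.11 and 0 CPM, and Plxna4, with 18.9 and 7.92. Robo2 was at 0, 14.9 and 161 CPM in dorsolateral and at 3.25, 71.5 and 97.1 in dorsomedial cells, and Unc5d at 0, 60.9 and 167 against 13.6, 131 and 207. As shares of the 52 members these are 3.85% and 19.2%. The total of 12 calls rests on the settings: it was 26 with day 63 cells alone, 18 with day 90 cells alone and 7 with a pseudocount of 5 CPM, so no reading against the background is made.

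Dorsomedial against ventromedial cells gave 5 members higher in dorsomedial cells (background 11.9%), 15 lower (background 12.3%) and 0 apart (background 0.0488%). Slit2 was at 0, 0 and 125 CPM in dorsomedial and at 0, 70.6 and 186 in ventromedial cells. Unc5c was at 0, 0 and 18.9 CPM in dorsomedial and at 5.24, 56.5 and 88.3 in ventromedial cells, with reads in 3 of 9 and 8 of 8 cells. The groups overlapped for Unc5c only through the lowest ventromedial cell, which was below 2 dorsomedial cells. Its medians were 0 and 60.5 CPM at day 63 and 0 and 30.8 at day 90, and those of Slit2 were 10.4 and 62.6 and then 0 and 70.6, so either age gave the same order. The log2 difference of Slit2, -6.11 by medians, was -2.74 by means over cells and -1.27 at day 63 alone. Epha5 medians were 9.56 and 98.8 CPM, with 27.5 and 74.4 at day 63 and 3.88 and 154 at day 90, so the gap at day 63 was much smaller. Those of Plxna4 were 7.92 and 71.4, with 11.8 and 71.4 at day 63 and 7.92 and 60.3 at day 90. Unc5d ran the other way, at 131 and 15.0 CPM, as did Sema6a at 39.2 and 19.1, although at day 63 Sema6a was at 33.9 dorsomedially and 59.2 ventromedially. Ventromedial cells held Slc17a8 (median 287 CPM) and dorsomedial cells Gad2 (median 98.0), and Ntn4, Slit2 and Unc5c were both among the 15 members higher in ventromedial cells and among the 6 called higher in the 10X Slc17a8 cells. The other 12 and the other 3 (Epha3, Nrp2 and Sema3f) were called in 1 of the 2 comparisons only, and Plxna4 was at 58.5 CPM in Slc17a8 cells against 62.7 over all 10X cells. The call of Ntn4 depended on the settings. Its dorsomedial and ventromedial medians were both 0 at day 63, and 0 and 4.42 CPM at day 90. By means over cells its log2 difference was -0.752, short of the limit of 1.

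**Figure D5:**
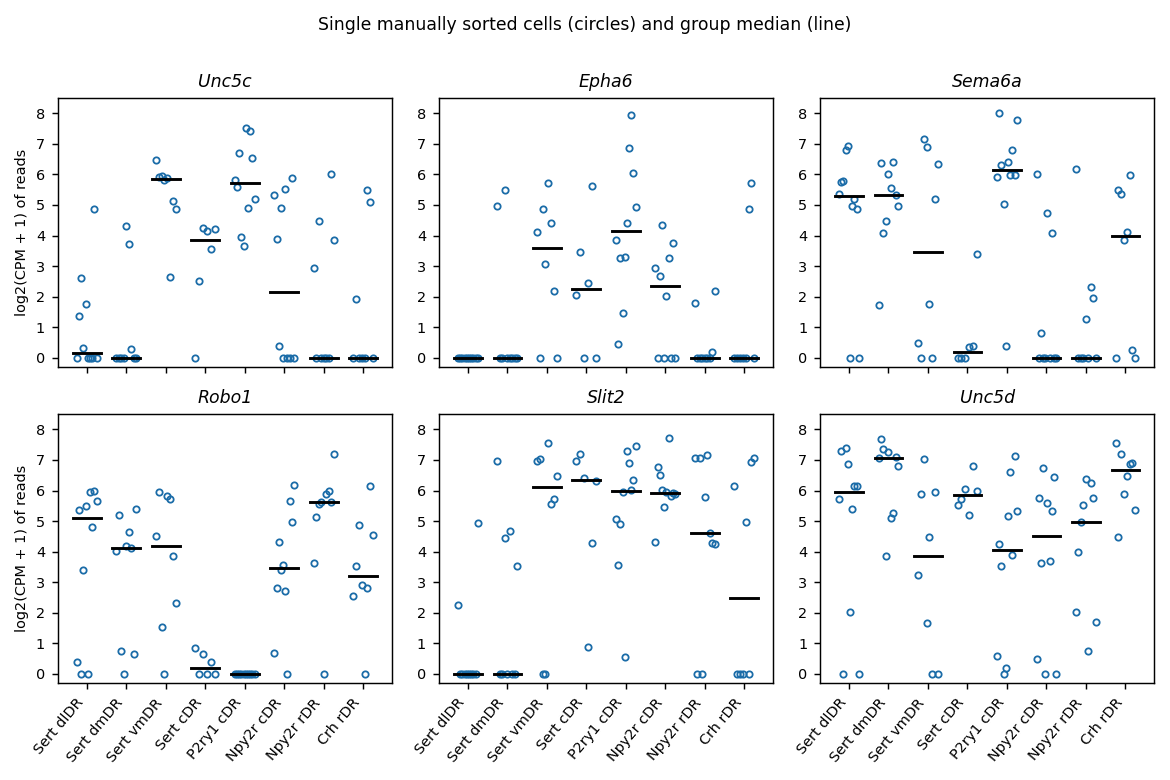
Log2(CPM + 1) of 6 members in each manually sorted cell (circles) of the 8 groups, with lines at the group medians. Unc5c, Epha6 and Sema6a have high medians in P2ry1 cDR cells, Robo1 has no reads there, and Slit2 and Unc5c have medians of 0 in Sert dmDR cells and high ones in Sert vmDR cells.

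Members of low level were poorly seen in so few cells. Efnb2 had reads in 1 cell each of 2 groups, Unc5b in 3 cells in all with at most 5.57 CPM, and Sema3d, which had its highest 10X level in Tph2-low cells, in 5 cells. Reads of unstranded full-length libraries cannot separate Plxna4 from its antisense transcript Plxna4os2, which had 21 UMIs in the 10X table. A level of 0 in a manually sorted cell cannot be told from a missed transcript.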

How the data were processed

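The authors deposited counts: a table of UMI counts per gene and cell for the 10X libraries and a table of read counts per gene for the manually sorted cells. Per the labels and the study's methods, 10X 3′ libraries were counted with Cell Ranger 3.0.2 and SMART-Seq v4 libraries aligned with STAR 2.5.4 to mm10, in R 3.5.3, and the 10X table was filtered for genes and for cells with few genes, much glial or mitochondrial RNA, little Fev or outlying totals, while the manual table was not. Every column of single cells used was matched to a sample or to the pooled 10X table, and 0 columns were left unmatched. The depth is 12320 to 134079 UMIs or 756872 to 7664103 reads per cell, and reads without molecular identifiers include PCR copies.

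From these counts CPM was computed over summed UMIs of a class, with exact Poisson and conditional binomial 95% intervals, which cover counting error only. No test was run, since cells are not replicates and no animals are named. A floor of 3 UMIs per class stands in for 0. Manual cells were compared by medians of log2(CPM + 1). Values in full went to members with 100 UMIs and 4-fold between the highest and lowest class (at most 30), to the 5 with the most UMIs and to the leader of each marker pair set. The members, classes, marker pairs and lists were chosen with earlier results of these data known. Doublets were called with Scrublet in scanpy 1.11.5 at an expected rate of 5% in each barcode set (7 and 7 cells, 0.596% of all) and kept. Alternatives were other class limits, thinning to 20000 UMIs, means of single cells, other totals, 1 barcode set, other minimums, another pseudocount and single ages. The code (Python 3.11.15, numpy 2.4.6, scipy 1.17.1, pandas 2.3.3) was tested on simulated data. Some results on the list of receptor partners are not reported here. Sequences came from RefSeq promoters of GRCm38.p6, the assembly of mm10.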

Additional observations from a re-analysis of the deposited data

Results flagged for a closer look

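In the manual cells, 48 combinations of a group with its reads or 1 of 5 members were searched for an outlying cell. Such a cell was found in 8 of them. The limit used flags about 1 in 20 by chance for normally distributed values. Levels with many zeros are not so distributed, and the chance rate for them is not known. P2ry1_Pet1_cDR replicate 10 had 3999547 reads on genes against 5247449 in the next cell. On the log2(CPM + 1) scale, Unc5c was at 2.64 in Sert_Pet1_vmDR replicate 6 against 4.85 in the next cell, Robo1 at 0 in Npy2r_Pet1_rDR replicate 5 against 3.64, and Slit2 at 4.93 in Sert_Pet1_dlDR replicate 10, above 2.27. Sema6a gave the other 4: it was at 6.17 in Npy2r_Pet1_rDR replicate 1 (next 2.32), 0.39 in P2ry1_Pet1_cDR replicate 5 (next 5.03), 3.41 in Sert_Pet1_cDR replicate 6 (next 0.38) and 1.72 in Sert_Pet1_dmDR replicate 1 (next 4.08).

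Among the 10X cells, 5 members lay on opposite sides of the remaining cells in the 2 barcode sets, with counting intervals that exclude 0 in both, and the difference between the sets was not tested. Efna5 in Slc17a8 cells had a log2 ratio of -0.58 in set 1 and 0.18 in set 2. Nrp2 in cells with neither was at -0.92 and 0.43, Sema3d in the same cells at -1.34 and 1.04, Unc5d in the same cells at 0.20 and -0.24, and Sema3c in Met cells at 0.69 and -0.63.

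Epha1, an Eph receptor that is no member because it is in the manual table alone, had reads in 5 of the 70 manually sorted cells.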

How the results depend on the processing

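The count of members called in Gad2 cells was 16 and became 10 with a minimum of 500 UMIs for a gene, that of Slc17a8 cells went from 11 to 7 and that of cells with both from 4 to 1, where fewer genes were compared. Thinning every cell to 20000 UMIs gave 8 for cells with both and 7 for cells with neither, which had 4. Cells with neither also gave 7 in barcode set 1 alone and 7 in set 2 alone. The other 71 recomputed class counts, with both directions added, stayed within 1.5 times their values. By direction this held for Met and Tph2-low cells under each setting, while small counts moved elsewhere: barcode set 2 alone gave 3 higher in Gad2 cells and 4 in cells with neither, each 1 in all cells, and thinning gave 6 lower in cells with both, from 2. In the manual cells a pseudocount of 5 CPM lowered the count from 20 to 12 for Npy2r_Pet1_cDR and Npy2r_Pet1_rDR, from 17 to 11 for Crh_Pet1_rDR and Npy2r_Pet1_rDR, and from 12 to 7 for Sert_Pet1_dlDR and Sert_Pet1_dmDR, and day 63 alone raised the last to 26. Sema6c turned from 2.76 to -0.0276 between Crh_Pet1_rDR and Npy2r_Pet1_rDR when means over cells replaced medians. Under the same change Plxnc1 turned from -1.18 to 0.333 between Sert_Pet1_dmDR and Sert_Pet1_vmDR. None of the 45 log2 ratios recomputed for the leading class or set of a named member changed sign, and 344 of their recomputed values stayed within the interval while 43 did not. After thinning, 16 of 32 shares of cells with a UMI fell beyond their binomial interval. Except for effects of construction, the cause was not tested. No paired analysis was possible because the results come from no test and replicate numbers only name cells. Members under 100 UMIs rest on few counts, and the groups of manual cells on 6 to 10 cells.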
